A study of Caenorhabditis elegans with 2 samples.

Results

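The genes sre-23, sre-1, sri-5, srh-89 and str-12 are chemoreceptor genes of the nematode Caenorhabditis elegans that had a TBX-2 peak near their start. They are 5 of 1310 protein-coding chemoreceptor genes, which belong to 23 families with a shared symbol prefix, and of 19973 nuclear protein-coding genes in all. They were chosen by name because earlier results of these data showed peaks there, in a class where peaks are rare. Their peak signals are therefore a description and support nothing by themselves. The data come from chromatin immunoprecipitation and sequencing (ChIP-seq) of the T-box transcription factor TBX-2 in late embryos of hermaphrodites, 3.5 h after synchronization by egg bleaching. The strain, OP159, carries the mutation unc-119(ed3) III and the transgene wgIs159, which supplies TBX-2 with a GFP-FLAG tag at its C-terminus, and an antibody against GFP was used. Both libraries, replicates 1 and 2, share this genotype and stage, and there is no second condition. The promoter of the transgene is not given in the labels, whole animals were used, and peaks from an untagged strain were not used here. A summit therefore says where DNA was recovered, and neither in which cells nor whether an untagged strain would give it too.

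Chemoreceptors of nematodes are receptors with multiple membrane-spanning segments, most of them predicted to couple to G proteins. Many are made in a few chemosensory neurons, where they detect odours, tastes or pheromones, and the genes often stand in tandem clusters. TBX-2 is known in C. elegans for its part in forming the anterior pharyngeal muscles, and has also been linked to adaptation of an olfactory neuron pair. The families are told apart by sequence and share a symbol prefix, so sre genes form class E and srh genes class H. No ligand is stated here for any of the 5 genes. In C. elegans many genes stand close together and head to head, so a single peak can lie within 1 kb of the 5′ ends of both genes of a pair.

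The summits near sre-1, srh-89 and str-12 lay between the receptor gene and another gene on the opposite strand, and in each case the other gene started closer. The gene sre-1 (WBGene00005149), a receptor of class E, spans chrII:7709704-7711504 on the plus strand. Its peak covered chrII:7708662-7708898 (ce11), with its summit at 7708783. The summit was 921 bp upstream of sre-1 and 73 bp upstream of B0495.9, which encodes an uncharacterized protein. The gene srh-89 (WBGene00005310), a receptor of class H, spans chrV:7463453-7464796 on the minus strand. Its peak covered chrV:7465548-7465983, with its summit at 7465766. It was 970 bp upstream of srh-89 and 118 bp upstream of F25E5.1, which encodes a protein with a BTB domain per RefSeq. The gene str-12 (WBGene00006080), a receptor of the str family, spans chrV:15610890-15612591 on the plus strand. Its peak covered chrV:15610342-15610777, with its summit at 15610560. It was 330 bp upstream of str-12 and 176 bp upstream of fbxa-153, which encodes an F-box protein. The 201 bp centred on each of these 3 summits are shown because they are the stretches that the peaks point to. They read along the plus strand of the WBcel235 assembly from RefSeq, at chrII:7708683-7708883, chrV:7465666-7465866 and chrV:15610460-15610660, with matches to the words searched in capitals.
sre-1 / B0495.9: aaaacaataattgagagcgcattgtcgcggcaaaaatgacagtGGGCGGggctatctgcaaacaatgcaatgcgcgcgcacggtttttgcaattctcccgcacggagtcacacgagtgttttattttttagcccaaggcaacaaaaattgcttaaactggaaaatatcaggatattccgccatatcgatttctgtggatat
srh-89 / F25E5.1: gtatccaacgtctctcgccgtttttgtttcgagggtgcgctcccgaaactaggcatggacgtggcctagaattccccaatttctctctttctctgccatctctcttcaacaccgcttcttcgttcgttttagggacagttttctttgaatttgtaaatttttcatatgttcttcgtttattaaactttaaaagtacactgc
str-12 / fbxa-153: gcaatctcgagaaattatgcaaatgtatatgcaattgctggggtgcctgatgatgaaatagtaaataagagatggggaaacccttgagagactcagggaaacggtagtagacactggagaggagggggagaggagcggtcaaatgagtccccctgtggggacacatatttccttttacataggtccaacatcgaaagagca

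None of these 3 stretches held the T-box word GGTGTGA on either strand, and the capitals in that of sre-1 are a GC box, GGGCGG, that starts 57 bp before the summit on the plus strand. The words searched on both strands were GGTGTGA, its shorter core GGTGTG (contained in it), the GA repeat GAGAGAGA, CTGCGTCT and GGGCGG. The windows of srh-89 and str-12 held none of them. Over all 3034 nuclear optimal summits, 201-bp windows held GGTGTGA in 2.7%, GGTGTG in 11.8%, GAGAGAGA in 15.8%, CTGCGTCT in 16% and GGGCGG in 12.8%. The GC content was 43.8% at sre-1, 41.8% at srh-89 and 46.3% at str-12, against a median of 46.8% over all optimal windows (quartiles 41.8% and 50.7%). Every 32-base word in these 3 windows occurred once in the genome.

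The other 2 members lie on chromosome I, and their summits differed in which start was closest. The gene sre-23 (WBGene00013957), another receptor of class E, spans 8256301 to 8258939 on the minus strand. Its peak covered 8259406 to 8259731 with its summit at 8259562. The summit was 623 bp upstream of sre-23 and 64 bp upstream of ZK265.10, a small nucleolar RNA gene on the same strand at 8259437 to 8259498. Small nucleolar RNAs guide chemical modification of other RNAs, above all ribosomal RNA. The nearest protein-coding neighbour of that summit, ZK265.7, started 2477 bp away. The gene sri-5 (WBGene00005517) spans 11182795 to 11186206 on the plus strand and has 2 annotated 5′ ends. Its peak covered 11182469 to 11182642 with its summit at 11182531. The symbol places sri-5 in the i family, while the RefSeq product name is a receptor of class T. Its summit was 264 bp upstream of sri-5 and 468 bp upstream of rsr-1, which encodes a PWI-domain protein related to splicing factors. Of the 5 genes, sri-5 was the only one whose own 5′ end was the closest of any gene. At the summit of sre-23 GGTGTG was found once, 66 bp before the summit along the plus strand and on the minus strand, and at that of sri-5 no word was found.

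**Figure D1:**
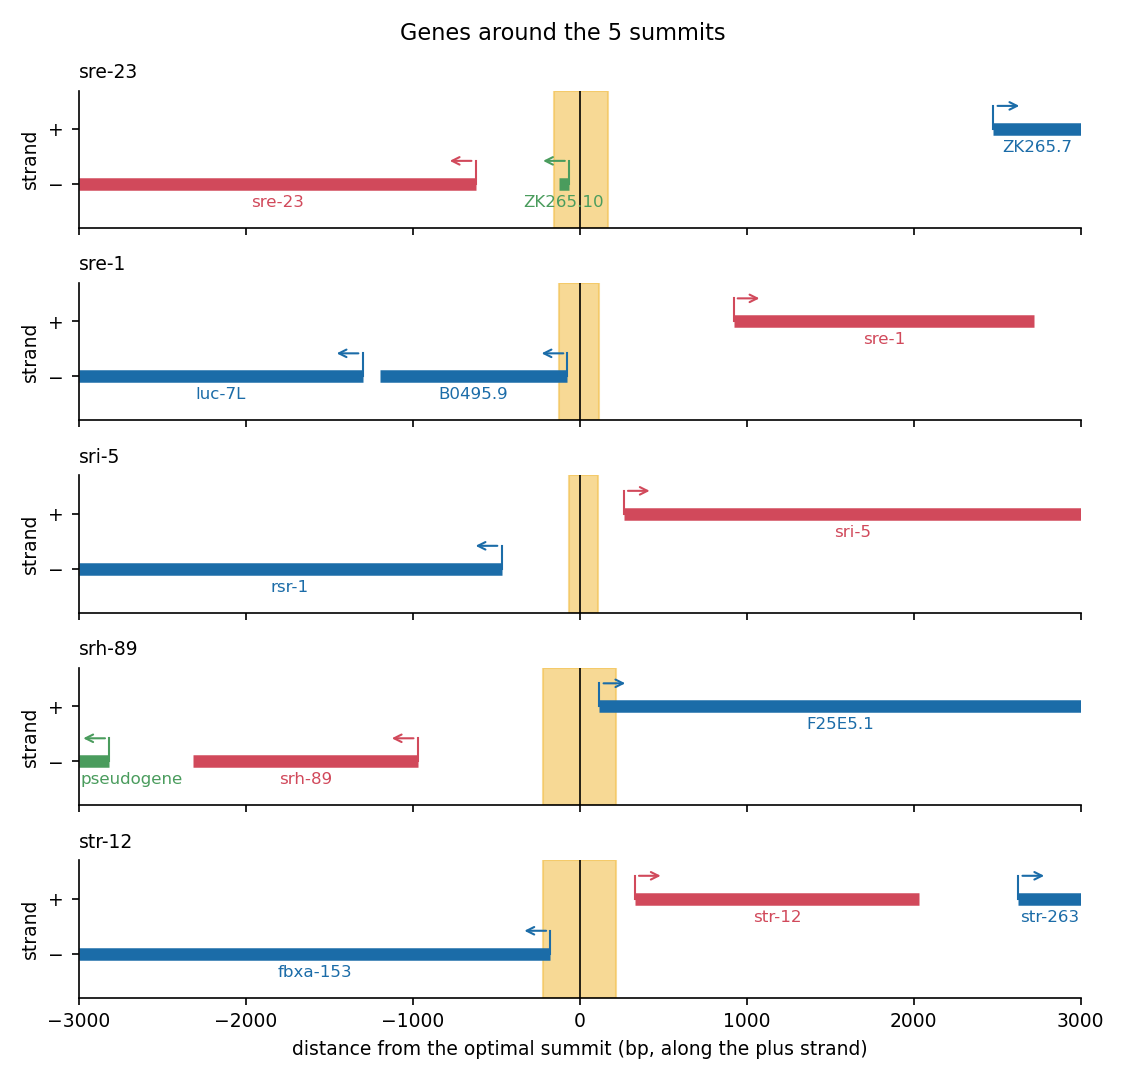
Genes around the optimal summit of each of the 5 receptor genes. The horizontal axis is the distance from the summit in bp along the plus strand. Red bars are the receptor gene, blue bars other protein-coding genes and green bars non-coding genes or pseudogenes. Arrows mark 5′ ends, the black line is the summit and the yellow band the peak. The summit lies 64 bp from ZK265.10, 73 bp from B0495.9, 118 bp from F25E5.1 and 176 bp from fbxa-153, and at sri-5 it is closer to the receptor gene.

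The 5 peaks differed widely in strength, and their order was almost the same in both replicates. The authors' peak signal has its own scale in each list, so signals were compared within a list, by rank (1 is the strongest). The sre-23 peak had a signal of 346 and rank 22 in replicate 1, and 195 and rank 55 in replicate 2. That of sre-1 had 182 and rank 165 in replicate 1, and 139 and rank 172 in replicate 2. These were the strongest of the 5 in both replicates, and their ranks did not overlap. The sri-5 peak had a signal of 139 and rank 375 in replicate 1, and 70.6 and rank 961 in replicate 2. The srh-89 peak had 131 and rank 441 in replicate 1, and 77.8 and rank 795 in replicate 2. The order of sri-5 and srh-89 changed between the replicates, so neither can be placed above the other. The str-12 peak was the weakest of the 5 in both, with a signal of 78.3 and rank 1354 in replicate 1 and 48.5 and rank 1885 in replicate 2. As mean ± SD (n = 2), the ranks were 38.5 ± 23.3 for sre-23, 168 ± 4.95 for sre-1, 618 ± 250 for srh-89, 668 ± 414 for sri-5 and 1620 ± 375 for str-12.

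All 5 peaks ranked higher in replicate 1 than in replicate 2, which held for 9 of the 11 bound receptor genes, members included. The share over all optimal peaks is not given here, so this is not a trait of the 5 genes. The replicates placed the 5 summits within 44 bp of each other. The distance between the replicates' summits was 1 bp at sre-23, 0 bp at sre-1, 32 bp at sri-5, 44 bp at srh-89 and 14 bp at str-12. Over 3030 nuclear optimal peaks overlapped in both replicates the median distance was 25.5 bp, with quartiles of 10 and 53 bp. The distance at srh-89 was smaller than the 118 bp that separated the pooled summit from F25E5.1. The peaks of sri-5, sre-1 and sre-23 were 174, 237 and 326 bp wide in the optimal set, and those of srh-89 and str-12 had its median width of 436 bp. The -log10 of the q-value stood at the highest value of each replicate's list (2.88 and 3.46) for 4 of the 5. That value was shared by 1147 of 23800 peaks in replicate 1 and by 1451 of 23216 in replicate 2. These 4 ranked within those numbers in both replicates, so the value adds nothing to their ranks. At str-12 the -log10 of the q-value was 2.59 in replicate 1 and 3.1 in replicate 2.

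**Figure D2:**
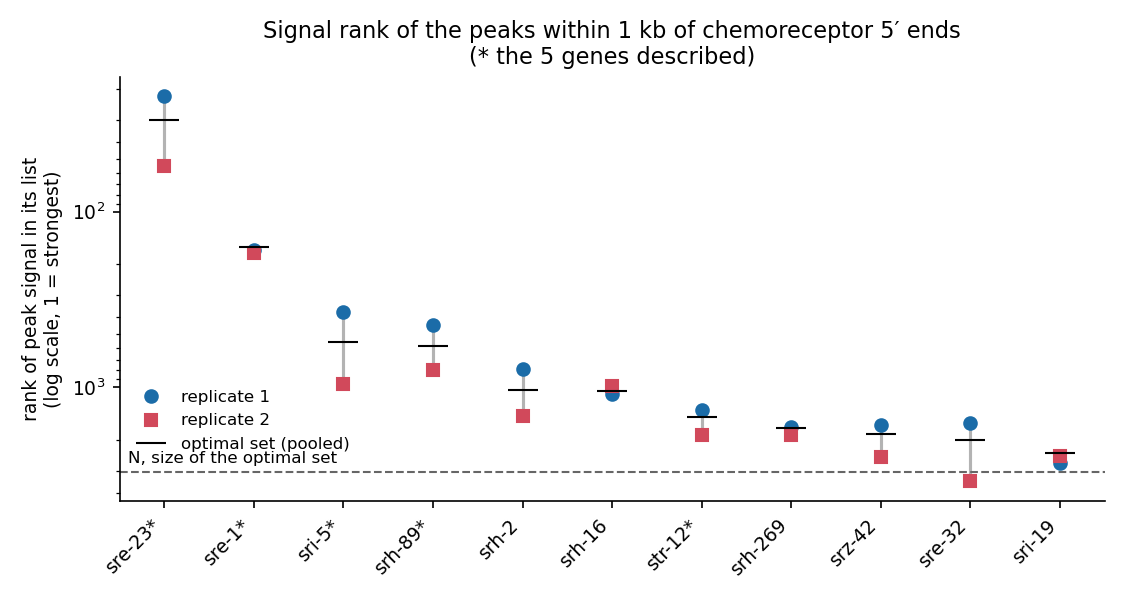
Rank of the peak signal (vertical axis, log scale, 1 at the top) of the strongest summit within 1 kb of each of the 11 chemoreceptor genes with an optimal summit. Circles are replicate 1, squares replicate 2 and black dashes the optimal set, and the dashed line is N, its size (3053). The 5 genes described, marked with an asterisk, lie above the line in both replicates; sre-32 falls below it in replicate 2, at rank 3449.

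Around their main peaks the 5 loci differed in how many further summits the relaxed lists held, which contain peaks together with background. Within 5000 bp of the 5′ end of str-12 the pooled list and both replicate lists held the main peak alone. At srh-89 the pooled list held 1 further summit, inside the gene, with a signal of 33.3 against 204 at the main peak, and replicate 2 held none. At sre-1 the main peak was 12.6 times as high as the next pooled summit (322 against 25.6), and at sre-23 it was 7.27 times as high (539 against 74.1). The next summit at sre-23 lay past the gene's far end, 3793 bp downstream of its 5′ end. At sri-5 there were 7 further pooled summits within 5000 bp, 4 of them inside the gene, and the main peak was 4.28 times as high as the next (208 against 48.7). In the replicates that ratio was 4.25 in replicate 1 (139 against 32.6) and 2.28 in replicate 2 (70.6 against 31). The adjacent receptor gene str-263, of the same family as str-12, had no summit of any list strength within 1 kb in the pooled data.

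Of the 1310 chemoreceptor genes, 11 (0.84%, 95% exact interval 0.42 to 1.5) had an optimal summit within 1 kb of an annotated 5′ end, and are called bound here in that sense alone. Among all protein-coding genes the share was 11.5%, and all 5 members were bound because they were chosen for it. The class itself was named for its low share in earlier results of these data, so that share is a description too. The 6 other bound receptor genes were srh-2, srh-16, srh-269, srz-42, sre-32 and sri-19. In the optimal set sre-23, sre-1, sri-5 and srh-89 ranked 30, 159, 556 and 587 and were the strongest of the 11, while srh-2 (1042) and srh-16 (1054) stood above str-12 (1484). The remaining genes ranked 1717 (srh-269), 1855 (srz-42), 1989 (sre-32) and 2383 (sri-19). The median rank of the 11 was 1054, and that of the other bound genes 1284. The receptor gene closest in rank was sre-1 for sre-23 (129 places apart) and the reverse, srh-89 for sri-5 (31 places) and the reverse, and srh-269 for str-12 (233 places).

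The 5 members were in the top lists of both replicates, and 10 of the 11 bound receptor genes were too, members included. Both replicates entered the optimal set from which the members were chosen, so this presence was largely given in advance. The class had a lower share than other genes in each of 5 lists. These lists overlap and come from the same 2 libraries in which the low share was first seen, so they are not separate support. N, the length of each top list, is 3053, the number of optimal peaks. In replicate 1 the top N summits lay within 1 kb of 11 receptor genes, the same 11, against 11.2% of all protein-coding genes. In replicate 2 they lay near 12 receptor genes (0.916%), against 11.3% of all genes. There sre-32 was lost and srd-44 and srr-10 were added. Among the 500 strongest optimal peaks 2 receptor genes were bound, sre-23 and sre-1 (0.153%, interval 0.0185 to 0.55), against 2.38% of all genes. A pooled relaxed summit of any strength lay within 1 kb of 149 receptor genes (11.4%, interval 9.7 to 13.2), against 44.5% of all genes and 46.8% of the other protein-coding genes. The stretch within 1 kb of a 5′ end was unique (at least 90% of its 32-base words occurring once) in 83.6% of receptor genes and 84.8% of other genes, and at 96.4% to 100% of words for the 5 members.

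**Figure D3:**
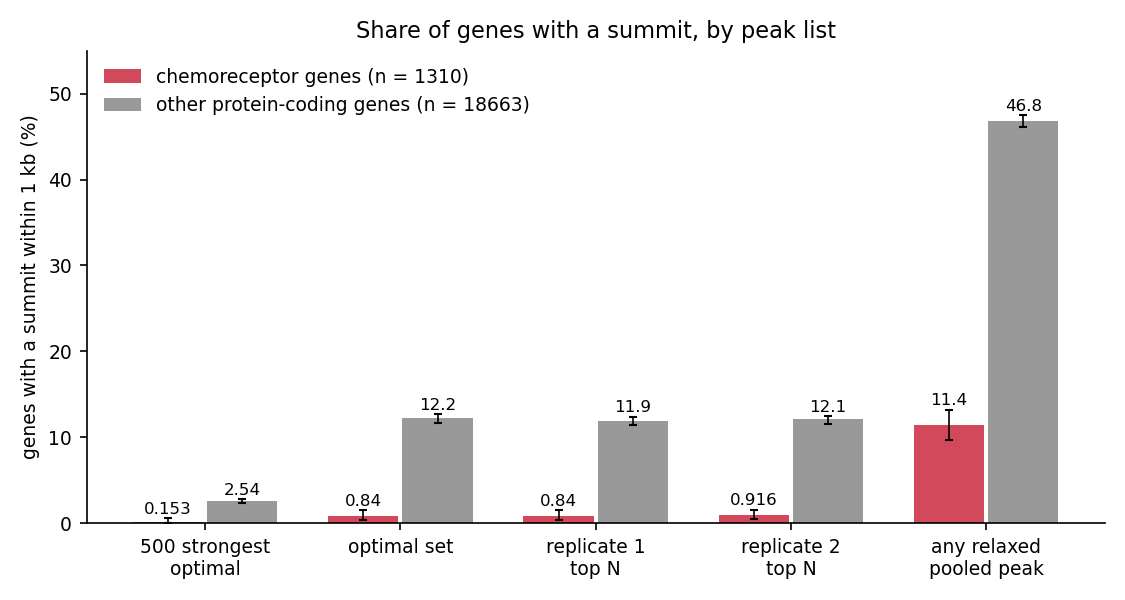
Share of genes (vertical axis, %) with a summit within 1 kb of a 5′ end, for chemoreceptor genes (red) and other protein-coding genes (grey), in 5 peak lists. Error bars are 95% exact binomial intervals, which cover counting over genes only. The receptor bars run from 0.153% to 11.4% and the grey bars from 2.54% to 46.8%.

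The 11 bound receptor genes fell in 5 of the 23 families and on 4 chromosomes. In the sre family 3 of 54 genes were bound, in sri 2 of 61, in srh 4 of 220, in srz 1 of 63 and in str 1 of 193. The other 18 families had none, and the largest of these was srw, with 0 of 109 (a limit of 3 counts in the total puts its share at up to 2.75%, and the exact interval ends at 3.33%). A relaxed pooled summit of any strength lay near 25.9% of sre genes, 32.8% of sri, 16.4% of srh, 6.35% of srz and 5.18% of str genes. The share was 11.4% over the class and 44.5% over all protein-coding genes. Families with no bound gene ranged widely too, as in srr (66.7% of 9 genes), srt (18% of 61) and srw (3.67% of 109). Chromosome V holds 890 receptor genes (67.9% of the class) and 5 of the bound ones (0.562%), with srh-89 and str-12 among them. Of its other protein-coding genes 7.7% were bound, the lowest such share of any nuclear chromosome. Chromosome I, with sre-23 and sri-5, holds 34 receptor genes, of which these 2 were bound, and 16.4% of its other protein-coding genes were bound. On chromosome II, home of sre-1, 2 of 170 were bound, against 11.4% of its other protein-coding genes.

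At 4 of the 5 members the summit was nearer to another gene's 5′ end than to the receptor's own, when genes of every biotype were counted. The share over all 2289 bound protein-coding genes was 40.6%. The 5 genes were chosen by name for their peaks, so no interval is given for them, and 5 genes are too few to compare with that share. With protein-coding neighbours alone, 3 of 5 had a nearer neighbour, and the share over all bound genes was 25.5%. Among all 11 bound receptor genes, with every biotype counted, it was 7 (63.6%, interval 30.8 to 89.1). That count and its interval include the 5 chosen genes. Among the 6 bound receptor genes that are not members it was 3, and with protein-coding neighbours alone 2. The 4 of the 11 with no nearer neighbour of any biotype were sri-5, srh-16, srh-2 and sre-32. At srh-16 the summit was 41 bp upstream of the gene. At srh-2 it lay inside the gene, 84 bp upstream of one of its 7 annotated 5′ ends, and at sre-32 also inside the gene, 644 bp downstream of its start. At srh-269 the summit lay inside a transfer RNA gene, 16 bp from its 5′ end, and 77.6% of the 32-base words there were unique. When each summit was given to its nearest protein-coding 5′ end, 12.4% of all genes received one, and of the 5 members sre-23 and sri-5 did.

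**Figure D4:**
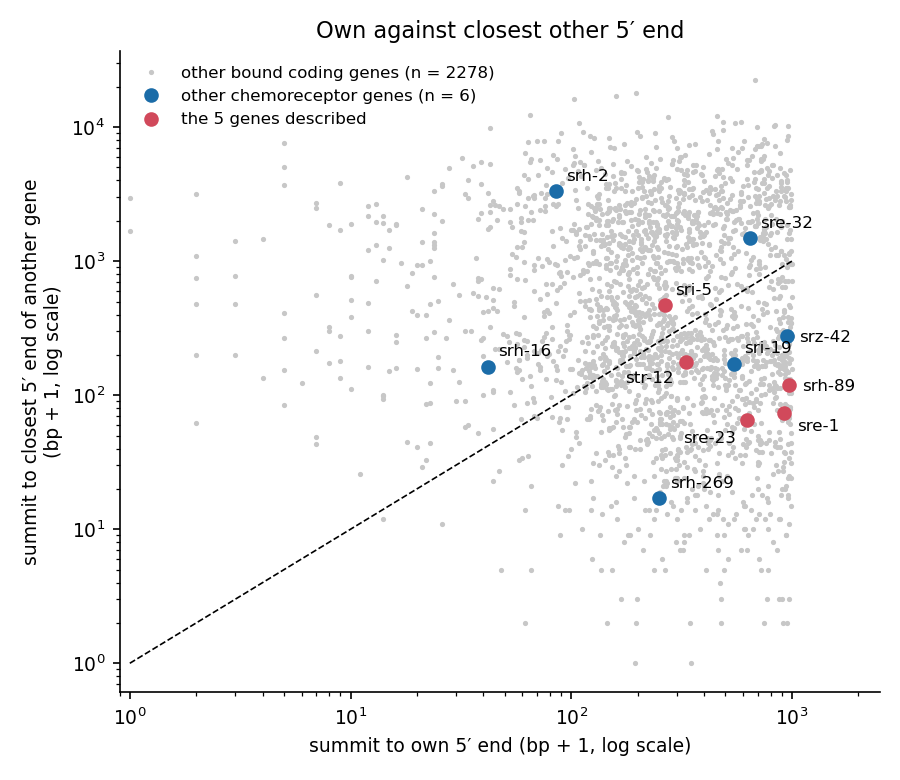
Distance from the summit to the bound gene's own 5′ end (horizontal axis) and to the closest 5′ end of any other gene (vertical axis), in bp plus 1 on log scales. Red points are the 5 genes described, blue points the 6 other bound chemoreceptor genes and grey points the other 2278 bound protein-coding genes. Below the dashed line the other gene is closer, which holds for sre-23, sre-1, srh-89 and str-12.

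All 5 members stood head to head with the next protein-coding gene upstream, none of which was a receptor gene. From 5′ end to 5′ end these pairs were 506 bp apart at str-12, 732 bp at sri-5, 994 bp at sre-1, 1088 bp at srh-89 and 3100 bp at sre-23. The summit lay at 92.7% of the way from sre-1 to its partner, at 89.2% from srh-89, at 65.2% from str-12, at 36.1% from sri-5 and at 20.1% from sre-23. All 5 summits were outside any annotated gene body, which held for 3 of the 6 bound receptor genes that are not members. No share over all optimal summits is given here, so this cannot be read as a trait of the 5 genes. The peak of sre-23 covered the whole of ZK265.10, and those of sre-1, srh-89 and str-12 reached into B0495.9, F25E5.1 and fbxa-153. In the class as a whole 36.2% of genes were head to head, against 46.1% of other protein-coding genes, and the median gap to the upstream coding gene was 1148 bp against 1157 bp. The members were chosen as bound genes, and bound genes of other kinds were also mostly head to head. Of those 2278 genes, 1479 were head to head and 799 were not. Receptor genes head to head with a gene of another kind were bound in 9 of 316 cases (2.85%, interval 1.31 to 5.34). Those head to head with a receptor gene were bound in 1 of 158 (0.633%, 0.016 to 3.48) and those not head to head in 1 of 836 (0.12%, 0.00303 to 0.665). The 5 members are among the 9.

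**Figure D5:**
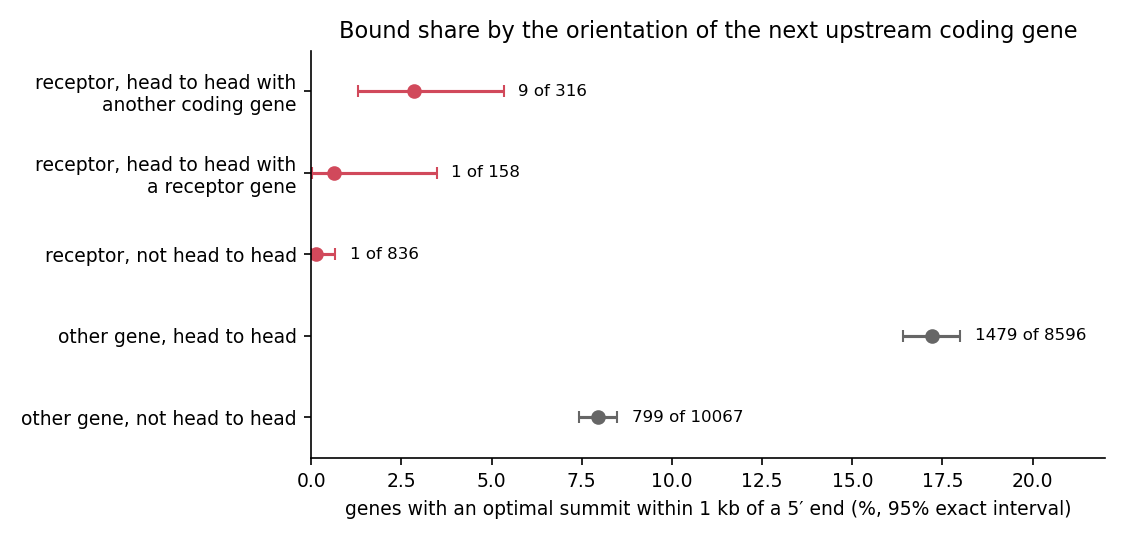
Share of genes with an optimal summit within 1 kb of a 5′ end (horizontal axis, %) by the orientation of the next coding gene upstream. Points are shares, bars 95% exact intervals, and the labels give counts; red is for chemoreceptor genes and grey for other protein-coding genes. Receptor genes head to head with another kind of gene reach 2.85%, and other genes head to head 17.2%.

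Sorted by distance in place of orientation, 9 of 315 receptor genes with a non-receptor 5′ end of any biotype within 1 kb of their own were bound (2.86%, interval 1.31 to 5.35). Of the 995 without one, 2 were bound (0.201%, interval 0.0244 to 0.724). The members sre-23, sre-1, sri-5 and str-12 are in the first set, and srh-89 is in the second, since F25E5.1 starts 1088 bp from it. With protein-coding neighbours alone the counts were 6 of 108 (5.56%, interval 2.07 to 11.7) and 5 of 1202 (0.416%, 0.135 to 0.968). Seen from the other side, 6 of the 109 other coding genes with a receptor 5′ end within 1 kb were bound (5.5%, interval 2.05 to 11.6). Among other coding genes with a non-receptor coding 5′ end within 1 kb the share was 22.5% (1087 of 4834), and among those without one 8.61% (1191 of 13829). A summit near several genes is counted for each of them, so these genes are not independent units and the intervals cover counting only.

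The members were taken with a limit of 1 kb. Just inside it were sre-1 at 921 bp, srz-42 at 944 bp and srh-89 at 970 bp, all upstream. Just outside were srh-24 at 1199 bp upstream (rank 288), srd-43 at 1211 bp upstream (rank 436) and srt-11 at 1287 bp upstream (rank 219). Of the summits between 1 and 2 kb from a receptor 5′ end, the strongest was near str-56 (signal 457, rank 52), 1397 bp downstream of its 5′ end, and it was stronger than the peaks of all members but sre-23.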

How the data were processed

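Replicates 1 and 2 are labelled biological replicates, and both also entered the pooled lists. Per the labels' accompanying file lists, the authors called peaks on ce11 for each replicate and for the pooled alignments against a control, and derived an optimal set from these by the irreproducible discovery rate. The sources used here name no aligner, peak caller, threshold or read depth. Each deposited list gives a peak signal, a summit and the -log10 of a q-value from the authors. The lists held 25747 pooled, 23800 (replicate 1) and 23216 (replicate 2) relaxed peaks and 3053 optimal peaks, 3034 of them nuclear. No peak ended past its WBcel235 chromosome, and ce10 lists were not used.

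Genome sequence and product names came from RefSeq and gene models from Ensembl release 115. Bound genes had a summit no more than 1 kb from one of their annotated 5′ ends. The strongest such summit stood for the gene. Intervals are 95% Clopper-Pearson (SciPy 1.17.1, Python 3.11.15). No hypothesis test was made: there is 1 group of 2 replicates, and the members were picked for their peaks. The assignment was tested on simulated data, where 200 of 200 planted summits were recovered. They were planted within 1 kb of a 5′ end, so this checked the code alone. It did not check whether a peak belongs to a gene or to its neighbour. Members and lists were chosen with earlier results of these data known. Named are the members, their closest other genes, the other bound receptor genes, flanking genes of the same family and the closest in rank. Other genes (ZK265.7, srd-44, srr-10 and those outside 1 kb) were named after their values were seen. Alternatives were other windows, stronger peaks, each replicate alone, peak intervals, outermost 5′ ends, nearest genes and other class definitions.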

Additional observations from a re-analysis of the deposited data

How the results depend on the processing

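The 5 members kept an optimal summit within 2 kb, among the stronger part of the optimal set (signal at or above its median), with peak intervals and with outermost 5′ ends. With either replicate alone they kept a summit among the top N of that replicate's relaxed list. In each of these runs 4 of them had a nearer neighbour. The runs with 2 kb, stronger peaks and peak intervals used the same optimal summits and 5′ ends. Their counts for the members were therefore largely given in advance. Within 500 bp, 2 members were bound (sri-5 and str-12), 1 with a nearer neighbour, and 5 receptor genes in all. Among the 500 strongest peaks 2 members were bound, both with a nearer neighbour. The same 2 receptor genes were the whole class there, and bound shares were 0.635% with a non-receptor 5′ end within 1 kb and 0% without one (0 of 995, up to 0.302% by a limit of 3 counts, not by the exact interval). With the nearest coding 5′ end 2 members were bound, and 2 members were in the top 500 of both replicates. Bound receptor genes numbered 22 within 2 kb and 7 among the stronger peaks. With one replicate left out they numbered 11 to 12, and the shares ran from 2.86% to 3.49% with such a neighbour and from 0.101% to 0.201% without.

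A class of every symbol with an sr or str prefix, chosen after seeing the data, gave 13 of 1364. Adding pseudogenes with receptor symbols gave 11 of 1630. Without depth, weaker peaks near receptor genes cannot be told from background.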

Other observations

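The words searched at the summits were also counted in the 201 bp upstream of receptor genes and of other coding genes. GAGAGAGA was in 0.916% of receptor genes and 2.86% of others, CTGCGTCT in 0.611% and 2.94%, and GGGCGG in 2.37% and 6.23%. The T-box word GGTGTGA was in 1.83% and 1.59%, and its core GGTGTG in 4.58% and 5.38%. Median GC content was 32.3% and 32.8%. These are shares over 1310 and 18663 genes and were not tested.

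Among the 6 bound receptor genes that are not members, 1 window held a word: the summit of srz-42 held CTGCGTCT. The closest other 5′ end at that summit was that of 21ur-6161, a piRNA gene, 276 bp away. At sri-19 it was that of Y69E1A.5, 171 bp away against 546 bp to sri-19.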
